A study of Homo sapiens with 4 samples.

Results

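The forkhead transcription factors FOXK1 and FOXK2 and 8 genes whose proteins work with them (BAP1, ASXL1, ASXL2, SIN3A, SIN3B, HCFC1, OGT and DVL2) were followed through 4 RNA-seq libraries of OVCAR5 cells. They were picked by gene symbol, and all 10 symbols were found among the 56655 rows of the count tables. OVCAR5 is an established human ovarian cancer cell line, grown from ascites and labelled as high-grade serous. Cells of 2 libraries carried a nontargeting hairpin in the vector pLKO.1-puro (shCtrl), and cells of the other 2 carried a short hairpin RNA against FOXK2 (shFOXK2), which lowers the matching transcript. Both kinds of cells were stably transduced with lentivirus, selected in puromycin and grown in RPMI medium with serum, and the labels give passages 4 to 6 for all of them. One hairpin stands behind the shFOXK2 libraries, so an effect of that hairpin on other transcripts and an effect of FOXK2 cannot be told apart. The submitters call the libraries of a group biological duplicates without saying what separated them, so p-values measure the spread between these libraries, which may be technical.

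FOXK1 and FOXK2 each join a forkhead DNA-binding domain to a forkhead-associated domain, which binds phosphorylated partners such as BAP1. BAP1 removes ubiquitin from histone H2A together with ASXL1 or ASXL2, and the same assembly holds HCFC1, a chromatin scaffold, and OGT, which attaches the sugar O-GlcNAc to proteins and cleaves HCFC1. SIN3A and SIN3B are scaffolds of histone deacetylase complexes that FOXK proteins bring to DNA, and DVL2 is one of the Dishevelled proteins, which carry Wnt signals and enter the nucleus with FOXK proteins.

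FOXK1 and FOXK2 both start in stretches unusually dense in the dinucleotide CG, and their promoters are printed because it is these paralogs whose transcripts are compared first. The 250 bases before the RefSeq start site (build GRCh38.p14, plus strand) are given 5′ to 3′ with each CG in capitals, for FOXK2 from chr17:82519482-82519731 and for FOXK1 from chr7:4682045-4682294.
FOXK2: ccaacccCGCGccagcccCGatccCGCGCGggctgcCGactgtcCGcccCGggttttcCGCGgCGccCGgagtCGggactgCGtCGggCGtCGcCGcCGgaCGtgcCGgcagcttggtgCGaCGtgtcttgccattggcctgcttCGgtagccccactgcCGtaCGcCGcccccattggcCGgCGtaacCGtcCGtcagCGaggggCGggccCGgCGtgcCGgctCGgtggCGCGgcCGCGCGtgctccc
FOXK1: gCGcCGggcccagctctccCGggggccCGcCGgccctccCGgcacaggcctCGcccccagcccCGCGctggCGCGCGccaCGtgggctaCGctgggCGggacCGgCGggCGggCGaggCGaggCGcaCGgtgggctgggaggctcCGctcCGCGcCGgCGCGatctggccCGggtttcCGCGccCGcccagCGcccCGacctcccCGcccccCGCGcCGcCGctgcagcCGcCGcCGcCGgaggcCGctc
With the first 50 transcribed bases added, each window of 300 bases held 55 CG, more than 99.6% of the 35116 RefSeq windows of that length, whose median was 14. RefSeq windows were matched for 8 of the 10 genes, 12 windows in all. The FOXK binding sequence TGTTTAC, searched on both strands, was in 0 of these 12 windows and in 3.42% of all windows. Its shorter core TGTTTA, which every match of the longer sequence also contains, was in 1 of the 12, a window of SIN3A where it lay 34 bases past the start site on the opposite strand, and in 12.3% of all windows. The SIN3B window and one of the ASXL2 windows lie at starts inside the gene, away from its 5′ end. So do a SIN3A window (chr15:75451641-75451940) and an ASXL1 window (chr20:32358815-32359114). The ASXL1 windows chr20:32358081-32358380 and chr20:32358094-32358393 share most of their bases, so the 12 windows are not independent. They are also too few to tell 0 from a share of 3.42%. A match of this kind is a string of letters and not a measured binding site.

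The libraries held 14284005 to 21950873 counts, and 3 counts, taken as the floor of detection, corresponded to 0.137 to 0.21 CPM (a gene’s counts relative to the library total, scaled between libraries by the trimmed mean of M values, TMM). Epithelial keratins marked every library, with KRT8 between 1857 and 2688 CPM, whereas the ovarian marker WT1 was at or under 0.0896 CPM. Defining markers of leukocytes were near 0 (summed 0.165 to 0.628 CPM over 4 genes). Some markers moved with the groups. E-cadherin (CDH1), on the epithelial list, was 20.6 and 16.2 CPM in shCtrl and 0.914 and 1.32 CPM in shFOXK2. The sum of 3 ovarian or fallopian markers went from 33.6 and 30.0 CPM to 10.97 and 9.39 CPM, with MUC16 at 17.8 and 9.03 CPM in shCtrl and 0 and 0.439 CPM in shFOXK2, and PAX8 at 15.7 and 20.9 CPM against 10.97 and 8.90 CPM. The sum of 3 endothelial markers went from 10.6 and 7.72 CPM to 0.633 and 1.98 CPM, with CDH5 at 0 in both shFOXK2 libraries, whereas that of 4 fibroblast markers stayed between 13.0 and 16.3 CPM, nearly all of it COL1A1. Their part in the results was not tested. Of 16417 genes tested by the edgeR quasi-likelihood test, 48.4% had an adjusted p-value under 0.05, which is called here passing the threshold, 22.7% being lower and 25.7% higher in shFOXK2. In bulk RNA, a change in the mixture of cells and a change in RNA per cell cannot be told apart.

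Of the 10 genes, 4 passed the threshold and all 4 were lower in shFOXK2: FOXK1, ASXL1, SIN3A and DVL2. None rose past it (0 of 10), and FOXK2, BAP1, ASXL2, SIN3B, HCFC1 and OGT were not past it. The share called lower, 4 of 10, stands beside 22.7% of all tested genes, and the share called in either direction beside 48.4%. The median log2 fold change of the 10 was −0.39, where all tested genes had 0.04. The shFOXK2 range was wholly below the shCtrl range for 6 of the genes (36.2% of all tested genes), above it for 1 (39.2%), and overlapped it for 3. Their counts ran from 709 to 4666 in a library, and all 10 passed the filter on low counts.

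**Figure D1:**
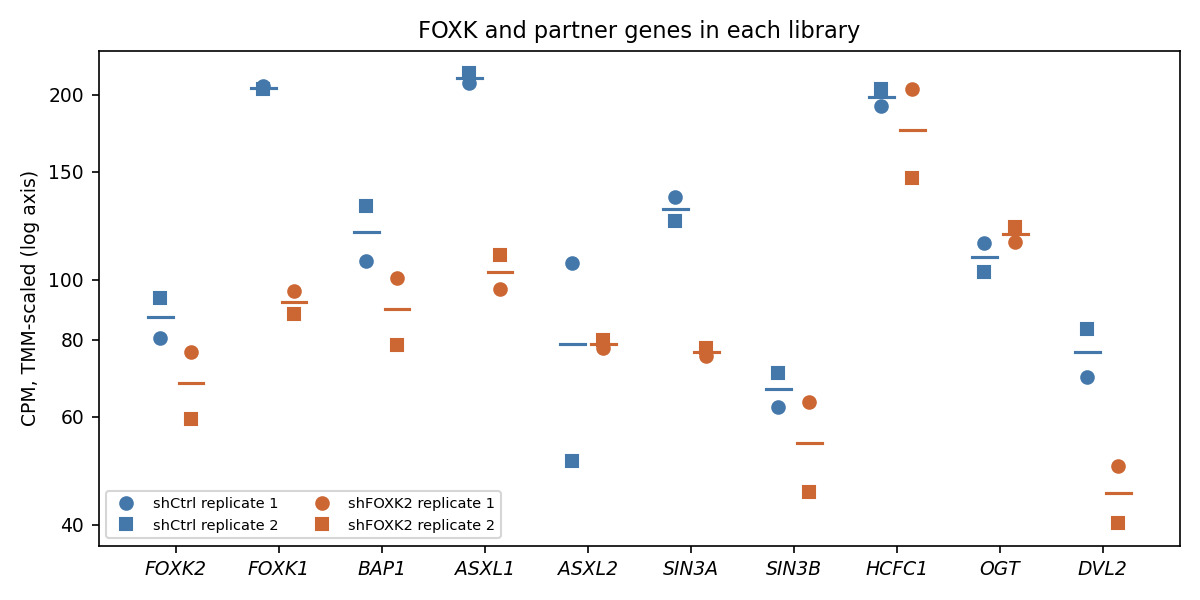
Level of each gene in each library as TMM-scaled CPM on a log axis, with circles for replicate 1, squares for replicate 2 and bars for the mean of the 2 libraries of a group. The shFOXK2 values of FOXK1 (96.0 and 88.1 CPM) lie far below its shCtrl values (207 and 204 CPM), while the shCtrl values of ASXL2 (107 and 50.9 CPM) enclose its shFOXK2 values.

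The targeted gene came first. FOXK2 (ENSG00000141568.21, chromosome 17, 82519713 to 82644662, plus strand, hg38) was counted 1796 and 1499 times in the shCtrl libraries, against 1086 and 1084 times with the hairpin. In scaled units this was 80.5 and 93.4 CPM in shCtrl and 76.3 and 59.6 CPM in shFOXK2. The higher shFOXK2 library lay close under the lower shCtrl library, and the groups did not overlap. The FOXK2 mean of the shFOXK2 libraries was 78.2% of the shCtrl mean. On the log2 scale FOXK2 differed by −0.36 (SE 0.25, 95% interval −0.89 to 0.18, edgeR adjusted p-value 0.257). A lowering of the targeted transcript was therefore not told from the spread between libraries, and the interval reached from a clear fall to a slight rise. The study itself reports less FOXK2 mRNA by qRT-PCR, and less protein by Western blot, in OVCAR5 cells with FOXK2 hairpins. Those measurements are not part of these libraries. On the A-content scale, where each library was adjusted for the share of A in transcripts, the log2 fold change was −0.03 (adjusted p-value 0.906). Over all tested genes this adjustment shifted log2 fold changes by a median of 0.169, and one for GC content, used below, by 0.125. Values with either adjustment are to be read against those shifts. A long noncoding gene on the opposite strand covers 1190 of the 9986 annotated exon bases of FOXK2, and 53 are shared with WDR45B (2627 and 2147 counts in shCtrl, 1259 and 1448 in shFOXK2), so some reads over those bases could belong to either gene.

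The paralog FOXK1, which was not the target of the hairpin, fell past the threshold. FOXK1 (ENSG00000164916.11, chromosome 7, 4682295 to 4771442, plus strand) was counted 4610 and 3276 times in the control libraries, against 1366 and 1603 times in shFOXK2. Every shFOXK2 value was far under every control value. FOXK1 went from 205 ± 1.81 to 92.0 ± 5.63 CPM (SD, n = 2 each), which is 44.8% of control, and the replicates of each group were within 1.09-fold of each other. Its log2 fold change of −1.16 (SE 0.23, 95% interval −1.65 to −0.66) had an edgeR adjusted p-value of 0.00111 and lay lower than all but 14.4% of tested genes. FOXK1 passed the threshold in each of the 10 alternatives that kept all libraries and in each of the 4 fits that left a library out.

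The ratio of FOXK1 to FOXK2 counts within a library does not depend on how libraries are scaled to each other. It was 2.57 and 2.19 in shCtrl and 1.26 and 1.48 in shFOXK2. Every shFOXK2 library thus had a smaller excess of FOXK1 counts than either shCtrl library. On the log2 scale the ratio went from 1.24 ± 0.16 to 0.45 ± 0.17 (SD, n = 2 each), a difference of −0.80. The exact permutation test, 2-sided, gave p = 0.333, the smallest value that 2 libraries against 2 can give, so this test could not separate the groups. Divided by transcript length, FOXK1 and FOXK2 were at 18.3 ± 0.16 and 16.6 ± 1.74 CPM per kilobase in shCtrl and at 8.22 ± 0.50 and 13.0 ± 2.27 CPM per kilobase in shFOXK2 (SD, n = 2 each). The order of the paralogs per length therefore differed between the groups, with FOXK1 above FOXK2 in both shCtrl libraries and below it in both shFOXK2 libraries.

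**Figure D2:**
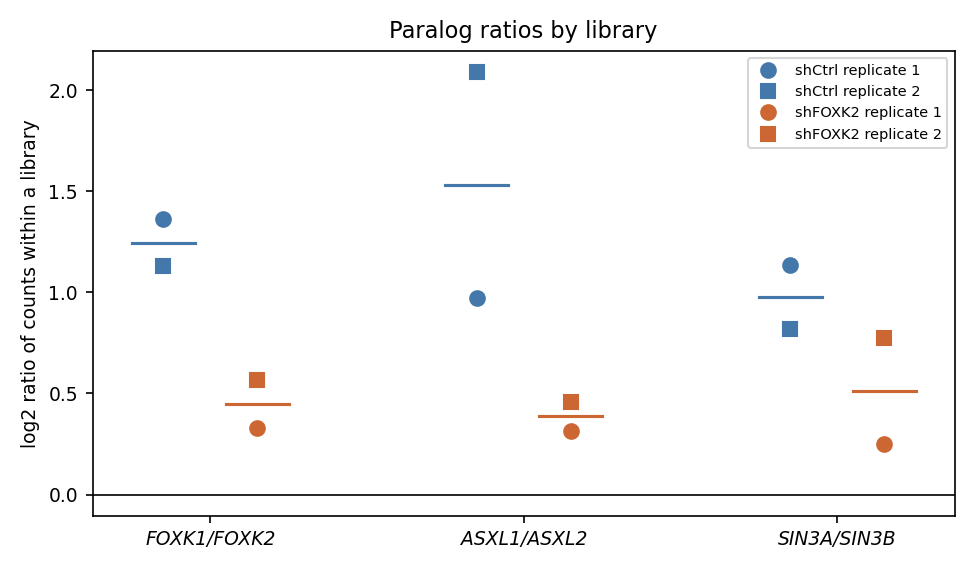
Log2 ratio of the counts of a paralog pair within each library, with circles for replicate 1, squares for replicate 2 and bars for group means. The FOXK1 to FOXK2 ratio was 1.36 and 1.13 in shCtrl and 0.33 and 0.56 in shFOXK2, and the shFOXK2 values of all 3 pairs lie below their shCtrl values. The ratios are not adjusted for base composition.

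Genes whose levels followed the same course were looked up by the Euclidean distance between log2 CPM values over the 4 libraries, each gene centred on its own mean, among genes of similar abundance. Nearest to FOXK2 out of 3965 candidates were RHBDF1, TBL2 and MED29, at distances of 0.028, 0.0296 and 0.0363 log2 units. RHBDF1, for example, had 52.8 and 62.4 CPM in shCtrl and 51.4 and 39.7 CPM in shFOXK2. Nearest to FOXK1 out of 2572 candidates were ZMIZ1, AREL1 and NPTN, at distances of 0.0405, 0.0564 and 0.0673. ZMIZ1 had 189 and 185 CPM in shCtrl and 90.2 and 80.4 CPM in shFOXK2. With 4 libraries many genes share such a course.

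Among the BAP1 assembly, ASXL1 fell while the deubiquitinase itself was not past the threshold. BAP1 (ENSG00000163930.10, chromosome 3, 52401008 to 52410008, minus strand) was at 107 and 132 CPM in shCtrl and 101 and 78.4 CPM in shFOXK2. The groups did not overlap, but the nearest libraries were close. Its log2 fold change was −0.42 (SE 0.25, 95% interval −0.95 to 0.11, adjusted p-value 0.18 by the edgeR quasi-likelihood test), and it was −0.06 with the adjustment for GC content and −0.09 with that for A content.

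ASXL1, the adaptor that activates BAP1 and a gene often mutated in blood cancers (ENSG00000171456.22, chromosome 20, 32358330 to 32439319, plus strand), had 209 and 217 CPM in shCtrl and 96.5 and 109.9 CPM in shFOXK2. Its values stood in separate ranges, at 213 ± 5.31 and 103 ± 9.44 CPM (SD, n = 2 each), and the shFOXK2 mean was 48.5% of control. The log2 fold change was −1.04 (SE 0.23, adjusted p-value 0.00224). On the A-content scale it was −0.69 (adjusted p-value 0.00979), still past the threshold.

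ASXL2, the paralogous adaptor (ENSG00000143970.18, chromosome 2, 25733753 to 25878487, minus strand), had 107 and 50.9 CPM in shCtrl and 77.5 and 79.9 CPM in shFOXK2. Both shFOXK2 libraries fell between the shCtrl libraries, which differed 2.09-fold, the widest replicate gap among the 10 genes. The group means were 78.74 ± 39.4 and 78.74 ± 1.69 CPM (SD, n = 2 each). The log2 fold change was −0.0014 (SE 0.31, 95% interval −0.67 to 0.67, adjusted p-value 0.998), a range that leaves room for changes in either direction. Without shCtrl replicate 1 it became 0.59, and without shCtrl replicate 2 it became −0.51, so even the sign depended on a single shCtrl library. The log2 ratio of ASXL1 to ASXL2 counts was 0.97 and 2.09 in shCtrl and 0.32 and 0.46 in shFOXK2, a difference of −1.14 (exact permutation p = 0.333, again the smallest possible). This ratio is not adjusted for base composition, and the transcripts held 53.4% (ASXL1) and 41.6% GC (ASXL2). With the adjustment for GC content the log2 fold changes were −0.71 for ASXL1 and −0.20 for ASXL2. With that for A content they were −0.69 and −0.32, so the genes lay closer together under both. Another paralog, ASXL3, had 0 or 1 counts in each library and was not tested.

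HCFC1 and OGT, both on chromosome X, were not past the threshold. HCFC1 (ENSG00000172534.14, 153947557 to 153971818, minus strand) had 192 and 204 CPM in shCtrl and 204 and 146 CPM in shFOXK2. Only one shFOXK2 library lay apart, the other matching the controls, and the log2 fold change was −0.18 (SE 0.24, 95% interval −0.70 to 0.34, edgeR adjusted p-value 0.572). Without shFOXK2 replicate 2 the sign of HCFC1 turned, to 0.01, as it did with the adjustments for GC content (0.11) and A content (0.16). Both adjusted values were no higher than the median shifts of all tested genes under these adjustments, 0.125 and 0.169.

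OGT (ENSG00000147162.15, 71533087 to 71575892, plus strand) had 115 and 103 CPM in shCtrl and 115 and 122 CPM in shFOXK2. It was the single gene of the 10 whose shFOXK2 libraries both lay above both controls, the nearest pair being 114.7 and 115.2 CPM. Its log2 fold change was 0.12 (SE 0.23, 95% interval −0.37 to 0.62, adjusted p-value 0.686), and the sign turned to −0.02 without shCtrl replicate 2 and to −0.08 with an adjustment for GC content. OGA, the enzyme that removes the sugar OGT adds and which the tables list under its older symbol MGEA5, had 109 and 68.5 CPM in shCtrl and 101 and 121 CPM in shFOXK2, with a log2 fold change of 0.33 (adjusted p-value 0.334).

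Of the SIN3 scaffolds, SIN3A fell and SIN3B did not pass the threshold. SIN3A (ENSG00000169375.17, chromosome 15, 75369379 to 75455842, minus strand) had 136 and 125 CPM in shCtrl and 75.4 and 77.5 CPM in shFOXK2. The shFOXK2 libraries agreed within 1.03-fold and lay well under both controls, at 58.5% of the control mean. The log2 fold change was −0.77 (SE 0.23, 95% interval −1.27 to −0.27, adjusted p-value 0.0144 by the edgeR quasi-likelihood test). The SIN3A call was lost when either shFOXK2 library was left out, replicate 1 (log2 fold change −0.78, adjusted p-value 0.0588) or replicate 2 (−0.82, 0.0525). A noncoding gene on the opposite strand covers 884 of the 12845 exon bases of SIN3A.

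SIN3B (ENSG00000127511.10, chromosome 19, 16829398 to 16880353, plus strand) had 62.2 and 70.6 CPM in shCtrl and 63.3 and 45.3 CPM in shFOXK2. One shFOXK2 library lay between the controls and the other below them. Its log2 fold change was −0.29 (SE 0.26, 95% interval −0.85 to 0.27, adjusted p-value 0.375), and its sign turned with the adjustments for GC content (0.03) and A content (0.04). Those values were under the median shifts of all tested genes, 0.125 and 0.169. The log2 ratio of SIN3A to SIN3B counts was 1.13 and 0.82 in shCtrl and 0.25 and 0.78 in shFOXK2, a difference of −0.46 in which the nearest libraries almost met (exact permutation p = 0.333). These 3 paralog ratios were the only ones computed, and no adjustment can take a p of 0.333 to the threshold.

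DVL2 (ENSG00000004975.12, chromosome 17, 7225342 to 7234517, minus strand) had 69.6 and 83.2 CPM in shCtrl and 49.8 and 40.3 CPM in shFOXK2. The groups did not overlap, and the shFOXK2 mean was 59.0% of control. Its log2 fold change of −0.76 (SE 0.25, 95% interval −1.31 to −0.22) passed with an edgeR adjusted p-value of 0.024. This call was the least steady of the 4. It was lost with the adjustment for GC content (log2 fold change −0.43, adjusted p-value 0.0603), with that for A content (−0.40, 0.0726) and without shFOXK2 replicate 2 (−0.65, 0.158). The other Dishevelled genes did not pass the threshold. DVL1 had 73.1 and 87.5 CPM in shCtrl and 165 and 88.4 CPM in shFOXK2 (log2 fold change 0.66, adjusted p-value 0.0789), and DVL3 had 157 and 164 CPM in shCtrl and 156 and 105 CPM in shFOXK2 (−0.30, 0.339). DVL1 passed with the adjustments for GC content, at 0.68 (edgeR adjusted p-value 0.0362), and A content, at 0.90 (0.0115). It was at 1.00 without shFOXK2 replicate 2 and at 0.11 without shFOXK2 replicate 1, so its value depended on which shFOXK2 library was kept.

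**Figure D3:**
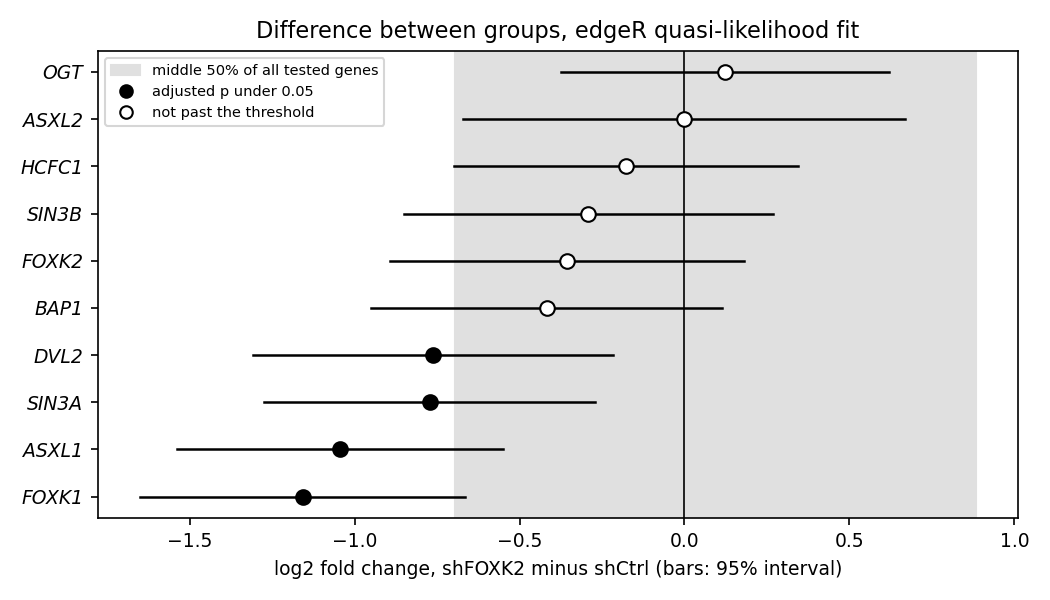
Log2 fold change of each gene, shFOXK2 minus shCtrl, with its 95% interval from the edgeR quasi-likelihood fit, filled where the adjusted p-value was under 0.05, over a grey band for the middle 50% of all tested genes. The intervals of FOXK1, ASXL1, SIN3A and DVL2 lie wholly below 0, and those of the other 6 genes cross it.

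Levels were then ranked per length of the canonical transcript, since longer transcripts yield more counts. In shCtrl the order ran from BAP1 at 33.2 ± 4.84 CPM per kilobase through ASXL1, DVL2, HCFC1, OGT, SIN3A, FOXK1, FOXK2 and SIN3B to ASXL2 at 6.13 ± 3.07 (SD, n = 2 each). The libraries of BAP1 and ASXL1 overlapped each other, as did those of OGT and SIN3A, so those neighbours were not told apart. In shFOXK2 the order was BAP1 (24.9 ± 4.39 CPM per kilobase), OGT, HCFC1, DVL2, ASXL1, FOXK2, SIN3A, SIN3B, FOXK1 and ASXL2 (6.13 ± 0.13). There all neighbours from BAP1 down to SIN3B overlapped, and FOXK1 lay apart from SIN3B above it and ASXL2 below it. ASXL1 went from the second place to the fifth and FOXK1 from the seventh to the ninth, while OGT went from the fifth to the second. The ranks rest on 1 annotated transcript for each gene, and the transcripts in use in these cells were not measured.

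The genes around these proteins were read from 8 lists, which hold the complexes and partners each of them works with. Of 78 companion genes tested, 13 were lower and 12 higher past the threshold, 32.1% in all, and 53 were not past it, against 48.4% called among all genes. Of all tested genes, 22.7% were lower and 25.7% higher past the threshold, so calls in both directions were not particular to the companions.

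**Figure D4:**
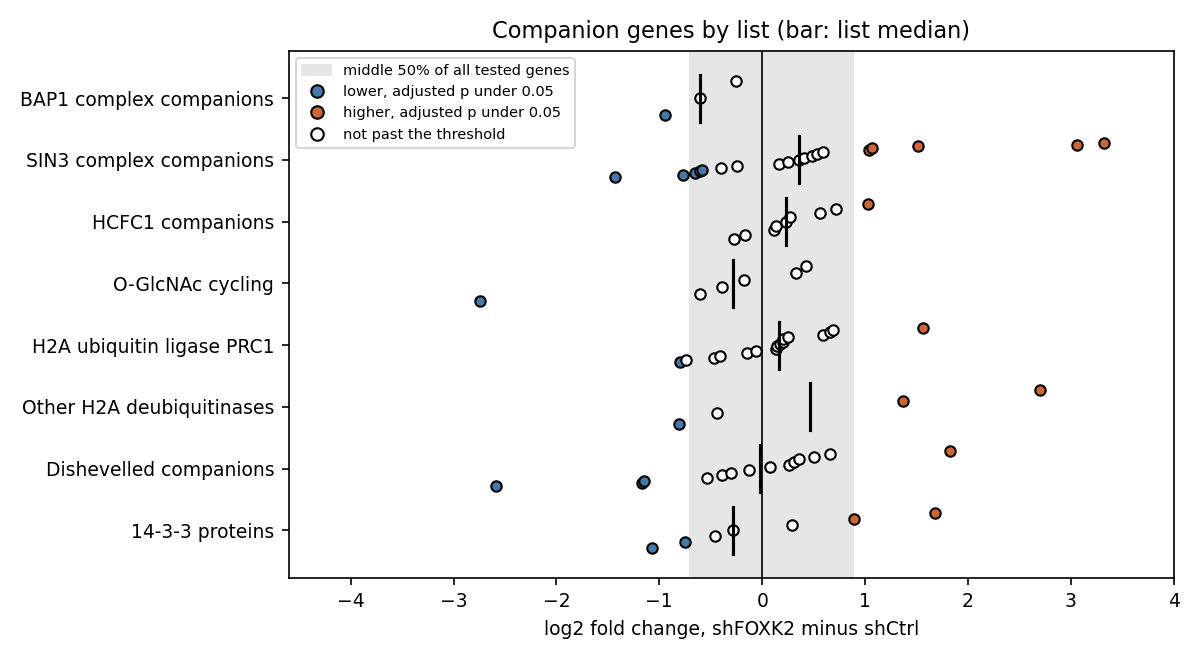
Log2 fold changes, shFOXK2 minus shCtrl, of the tested companion genes in 8 lists, filled blue where lower and orange where higher past the threshold, with a bar at each list's median and a grey band for the middle 50% of all tested genes. ARID4B (3.32) and ARID4A (3.06) of the SIN3 list are the highest points, and GFPT2 (−2.74) of the O-GlcNAc list is the lowest.

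In the SIN3 list of 19 tested genes, 5 rose, 4 fell and 10 did not pass, with a median log2 fold change of 0.36. The share called, 47.4%, was near the 48.4% of all tested genes. The largest rises were those of the paralogs ARID4B and ARID4A, DNA-binding subunits of the SIN3 deacetylase complex. ARID4B had 20.7 and 8.28 CPM in shCtrl and 118 and 172 CPM in shFOXK2 (log2 fold change 3.32, SE 0.39, adjusted p-value 2.74e-05), and ARID4A had 281 and 107 counts in shCtrl and 853 and 1848 counts in shFOXK2 (3.06, SE 0.36, 2.89e-05). All shFOXK2 values of both genes were several times their highest shCtrl value. Their transcripts were 34.9% and 35.9% A, and on the A-content scale the log2 fold changes were 1.65 and 1.06, both still past the threshold. SINHCAF, which links deacetylases to SIN3, fell from 104 and 81.6 CPM to 34.9 and 34.0 CPM (−1.43, SE 0.25, adjusted p-value 0.000535). SAP30L, a paralog of the SIN3 subunit SAP30, fell by 0.77 on the log2 scale (adjusted p-value 0.0281), and its call was lost on the A-content scale (−0.45, 0.0782) and without shFOXK2 replicate 1 (−0.84, 0.0667) or 2 (−0.75, 0.117).

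The BAP1 list had 3 tested genes, of which KDM1B, a histone demethylase found with BAP1 complexes, fell from 31.9 and 26.7 CPM to 17.3 and 13.3 CPM (log2 fold change −0.94, SE 0.28, adjusted p-value 0.0134). This call was lost without shFOXK2 replicate 2 (−0.79, 0.0976). The BAP1 list thus had 33.3% of its tested genes called, where all tested genes had 48.4%. The PRC1 list holds the ligase that adds the ubiquitin BAP1 removes, and 12.5% of its tested genes were called. Of its 16 tested genes 14 did not pass, including the catalytic subunits RING1 and RNF2, 1 rose (YAF2, log2 fold change 1.56, adjusted p-value 0.0019) and 1 fell (KDM2B, −0.79, 0.0206). YAF2 did not pass with the adjustment for GC content (0.48, 0.186) or A content (0.62, 0.0929). KDM2B did not pass on the A-content scale (−0.45, 0.0638) or without shFOXK2 replicate 1 (−0.87, 0.0564) or 2 (−0.78, 0.105). Among 4 other H2A deubiquitinases, USP16 rose from 14.9 and 12.3 CPM to 73.8 and 104 CPM (2.70, SE 0.28, adjusted p-value 1.3e-05), MYSM1 rose by 1.37 (0.0151) and USP21 fell by 0.81 (0.0238). With these, 75% of that short list was called, beside 48.4% of all tested genes. USP16 was at 0.61 on the A-content scale, where its call held (0.0228) and those of MYSM1 (0.65, 0.12) and USP21 (−0.46, 0.0789) did not. With the adjustment for GC content neither MYSM1 (0.58, adjusted p-value 0.142) nor USP21 (−0.49, 0.0589) passed. MYSM1 depended on the shCtrl libraries, with a log2 fold change of 0.69 (adjusted p-value 0.0885) without replicate 2 and 2.43 (2.27e-07) without replicate 1. USP21 missed the threshold without shFOXK2 replicate 1 (−0.83, 0.0704) or 2 (−0.84, 0.079).

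In the HCFC1 list 1 of 9 tested genes rose, HCFC1R1, which encodes a small regulator of HCFC1 (log2 fold change 1.03, SE 0.25, adjusted p-value 0.00421), and 0 fell. The share called there, 11.1%, was under the 48.4% of all tested genes. In the O-GlcNAc list 1 of 6 (16.7%) fell and 0 rose. That gene was GFPT2, an enzyme of the first step toward the sugar donor of OGT, with 92.2 and 109.8 CPM in shCtrl and 19.7 and 10.5 CPM in shFOXK2 (−2.74, SE 0.32, adjusted p-value 2.69e-05).

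In the Dishevelled list of 14 tested genes, 3 fell, 1 rose and 10 did not pass, with a median log2 fold change of −0.02. This was 28.6% called, beside 48.4% of all tested genes. AXIN2, a scaffold of the β-catenin destruction complex and itself a common Wnt target, was down to 4 and 18 counts in shFOXK2 from 89 and 65 in the controls (log2 fold change −2.59, SE 0.49, adjusted p-value 0.000789). LRP5, a Wnt co-receptor, fell from 506 and 543 CPM to 213 and 255 CPM (−1.16, SE 0.23, adjusted p-value 0.00117). APC, a destruction complex scaffold with a transcript of 33.9% A, rose by 1.82 (adjusted p-value 0.000478) but was at 0.44 on the A-content scale (0.127). The remaining fall, named here because so few passed, was that of CTNNB1, which encodes β-catenin (−1.15, adjusted p-value 0.00117). The CTNNB1 value was not followed under other settings. In the list of 14-3-3 proteins, which bind phosphorylated FOXK proteins, 2 of 7 fell and 2 rose. The called share of this list was 57.1%, beside 48.4% of all tested genes. SFN rose by 1.68 (adjusted p-value 0.00036) and YWHAZ by 0.89 (0.0067), and YWHAG fell by 1.08 on the log2 scale (0.00162) and YWHAE by 0.75 (0.0166). The call of YWHAZ was lost with the adjustment for GC content (0.38, 0.143), and that of YWHAE without shFOXK2 replicate 1 (−0.74, 0.0667) or 2 (−0.81, 0.0546).

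**Figure D5:**
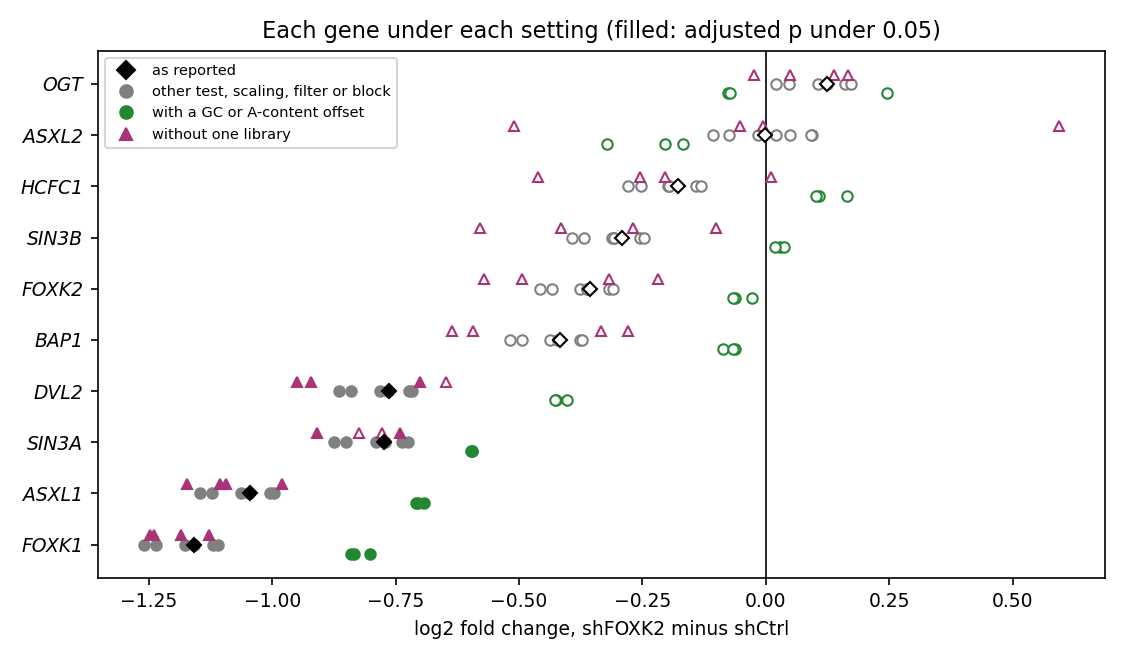
Log2 fold change of the 10 genes, shFOXK2 minus shCtrl, under every setting, with a black diamond for the value reported, grey for other tests, scalings, filters and blocks, green for adjustments on base composition and purple for fits without one library. FOXK1 and ASXL1 stay filled, which marks an adjusted p-value under 0.05, in every setting, while the signs of ASXL2, SIN3B, HCFC1 and OGT change in some.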

How the data were processed

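Polyadenylated RNA of 4 OVCAR5 libraries was sequenced single-end. Per the labels and the study's methods, the authors aligned reads to hg38 with STAR 2.5.2, counted them per gene with HTSeq and deposited raw counts per gene symbol without normalization. The annotation and strand setting are not given in the sources used here, so reads of a gene and an antisense partner cannot be told apart. Intervals and floors cover counting error only where they rest on counts, since PCR copies are not independent molecules.

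Titles of the samples gave the groups. After filterByExpr had removed low genes, the counts were scaled by TMM and compared with the edgeR 4.0.16 quasi-likelihood F test in R 4.3.3 (2-sided, Benjamini-Hochberg adjustment over 16417 genes, threshold 0.05). The SE is the absolute log2 fold change over the square root of F. With 2 libraries a group, p-values rest on variance shared between genes. Coordinates, lengths and base composition came from GENCODE 44 (36901 of 56655 symbols matched, holding 99.29% of counts). The A-content and GC adjustments are lowess offsets (span 0.2) for each library, and 87.7% of tested genes had a composition value. Promoters came from RefSeq (GRCh38.p14).

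The genes and lists were chosen with earlier results of these data known. Named companions were, for each list, the 2 with the smallest adjusted p-values among those that passed in each direction, plus paralogs, OGA and the 3 nearest profiles of FOXK1 and FOXK2. CTNNB1, KRT8, CDH1, PAX8 and WT1 were named besides, as were RING1 and RNF2, after their values were seen. DESeq2 1.42.0 was an alternative. The tests were checked on simulated counts, in which few genes changed, as many up as down, with no effect of base composition. That setting differs from these data, so the check does not vouch for the calls given here.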

Additional observations from a re-analysis of the deposited data

How the results depend on the processing

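Under 10 alternatives that kept all libraries, 84 of 100 values of the 10 genes had the direction and the call reported above, as had 34 of 40 values in the 4 fits without a library. In those fits the lone library is assumed to vary like the other group, and fewer samples give less power. FOXK1 and ASXL1 passed in all of them. SIN3A passed unless a shFOXK2 library was left out. The DVL2 call was lost with the replicate block (−0.76, adjusted p-value 0.0529), the GC offset (−0.43, 0.0603), the A-content offset (−0.40, 0.0726) and both GC offset and block (−0.43, 0.0834), its adjusted p-values ranging from 0.0101 to 0.0834 where all libraries were kept. ASXL2 reversed under library size scaling (0.022), a minimum of 10 counts in every library (0.048), the replicate block (0.095) and the crossed block (0.092). For the GC offset, the A-content offset and the GC offset joined to the block, SIN3B reversed to 0.028, 0.037 and 0.020, and HCFC1 to 0.11, 0.16 and 0.10. OGT reversed to −0.077 under the first of these and −0.073 under the last. Without one library at a time, log2 fold changes ran from −0.57 to −0.22 for FOXK2, −0.63 to −0.28 for BAP1, −0.58 to −0.10 for SIN3B, −0.51 to 0.59 for ASXL2, −0.91 to −0.74 for SIN3A, −0.46 to 0.011 for HCFC1, −0.025 to 0.17 for OGT and −0.95 to −0.65 for DVL2. The cause was not tested.

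The number of genes past the threshold, 7940, stayed between 6008 and 9207. The median of all genes shifted by 0.125 (GC offset), 0.118 (GC offset and block), 0.169 (A-content offset) and −0.102 (no filter), and values under those settings are to be read against these shifts. Called genes in the BAP1 list went from 1 to 2 under DESeq2, its size factors, no filter and the crossed block. Those in the HCFC1 list went from 1 to 2 (GC offset, alone or blocked) and 4 (A-content offset), and in the O-GlcNAc list from 1 to 2 (no filter), 4 (GC offset, alone or blocked) and 3 (A-content offset). The PRC1 list went from 2 to 4 (GC offset), the H2A deubiquitinases from 3 to 1 (either offset), and the Dishevelled list from 4 to 9 (GC offset), 8 (A-content offset) and 10 (GC offset and block). Leaving out one library gave 0 to 2 in the BAP1 list (0 without shFOXK2 replicate 2, 2 without shCtrl replicate 1), 1 to 2 in the HCFC1 list (2 without either of these), 1 to 3 in the O-GlcNAc list (3 without shCtrl replicate 2) and 1 to 4 in the PRC1 list (1 without either shFOXK2 library, 4 without shCtrl replicate 1).

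Of 279 values of 28 other named genes, 255 had the reported direction and call, 17 became weaker, 4 stronger and 3 reversed, namely DVL3 (0.016, A-content offset) and MED29 (0.0066, GC offset, and 0.020, A-content offset). CTNNB1, RING1 and RNF2 were not among these 28, and their values were not followed under the alternatives. OGA (MGEA5) ran from −0.042, without shCtrl replicate 2, to 0.66.

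Same-numbered libraries did not deviate together (correlation −0.113, 2 pairs), so the numbers were not taken as pairs. Among named genes the replicate block ended the calls of DVL2, SAP30L (−0.77, adjusted p-value 0.0619) and USP21 (−0.81, 0.0514) with little change in value, and GC offset and block together ended those of DVL2, USP21 (−0.49, 0.0844), YAF2 (0.44, 0.201), KDM2B (−0.48, 0.067) and YWHAZ (0.39, 0.135). Library size scaling ended that of MYSM1 (1.39, 0.052). The replicate block gave 7270 genes past the threshold, and the crossed block, chosen after seeing the data, 8350. The 3 paralog ratio differences have the same value when blocked, which the balanced design fixes by arithmetic, so it does not test them.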

Other observations

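The order of the libraries within each group largely went with the base composition of the 10 transcripts. FOXK2, FOXK1, BAP1, SIN3B, HCFC1 and DVL2, whose transcripts held 55.6% to 61.5% GC, each had more CPM in shFOXK2 replicate 1 than in replicate 2. ASXL1, ASXL2, SIN3A and OGT, at 41.6% to 53.4% GC, each had more in replicate 2. In shCtrl, FOXK2, BAP1, ASXL1, SIN3B, HCFC1 and DVL2 had more CPM in replicate 2, and ASXL2, SIN3A and OGT in replicate 1. FOXK1 was nearly level there, 1.01-fold higher in replicate 1. The 4 genes that passed the threshold ran from 47.1% to 60.3% GC and the 6 that did not from 41.6% to 61.5%. The part of composition in these differences was not tested beyond the offsets given above.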
